A study of Mus musculus with 2 samples.

Results

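The genes described here are 10 markers of the choroid plexus epithelium, measured in 2 RNA sequencing libraries of mouse embryonic hindbrain. They were chosen by symbol (Ttr, Kl, Folr1, Aqp1, Clic6, Kcne2, Enpp2, Kcnj13, Foxj1 and Sostdc1), and all 10 were found among the 43346 Ensembl genes of the deposited tables. Both libraries came from the hindbrain of B6NCrl embryos at 13.5 days, male and female embryos pooled, and form 1 group with no treated or mutant counterpart. They are labelled as biological replicates 1 and 2; the labels name 1 donor for both and a separate biosample for each. The input was 10 ng of RNA above 200 nt, extracted with mirVana, with ERCC spike-ins added. With 1 group, the comparisons are between the genes, between their transcripts and between the 2 libraries, and p-values of the last compare 2 libraries, not conditions.

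The choroid plexus is a folded secretory epithelium that hangs from the roof of the brain ventricles and makes the cerebrospinal fluid. In the hindbrain it arises from the roof plate of the fourth ventricle, next to the rhombic lip, and its cells combine ion channels, water channels and carrier proteins with tufts of cilia. The genes fall into secreted or shed proteins (transthyretin, autotaxin, SOSTDC1, klotho), proteins of transport (the aquaporin AQP1, the folate receptor FOLR1, the channel proteins KCNE2, KCNJ13 and CLIC6) and a transcription factor of cilia (FOXJ1). In a piece of bulk tissue, fewer cells of a type and less RNA per cell cannot be told apart.

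Sequences are shown first where the data bear on them. The transcript tables divided Enpp2 between forms with and without 2 extra coding exons, of 156 and 75 bases, which keep the reading frame since both lengths are multiples of 3. These exons are printed in capitals with 15 bases of the neighbouring exons in lower case, 5′ to 3′ on the minus strand of chromosome 15 (GRCm38, transcript sequences of GENCODE M21), followed by the junctions that join the neighbours where each exon is skipped, as in Enpp2-201.
Enpp2 156-base exon, chr15:54877776-54877931: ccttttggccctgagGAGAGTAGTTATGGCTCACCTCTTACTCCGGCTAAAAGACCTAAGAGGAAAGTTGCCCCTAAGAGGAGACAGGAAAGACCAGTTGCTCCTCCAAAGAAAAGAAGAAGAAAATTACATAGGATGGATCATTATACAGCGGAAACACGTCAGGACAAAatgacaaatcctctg
Enpp2 junction without the 156-base exon: ccttttggccctgagatgacaaatcctctg
Enpp2 75-base exon, chr15:54851348-54851422: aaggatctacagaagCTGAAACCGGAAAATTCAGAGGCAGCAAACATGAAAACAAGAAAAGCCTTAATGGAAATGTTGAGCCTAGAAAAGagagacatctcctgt
Enpp2 junction without the 75-base exon: aaggatctacagaagagagacatctcctgt

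Promoters were looked up in a table of RefSeq start sites (GRCm38.p6), where 4 of the 10 genes were matched, with 5 start sites. The 250 bases before the start are printed for the 3 genes found there whose level differed between the libraries, Kcnj13, Kcne2 and Aqp1. Capitals mark matches, on either strand, to the 4 motifs searched. The motif TAATCC is an OTX-type homeodomain site, and TAAACA is the core recognised by forkhead factors. The motif GTTGCC belongs to the X-box, which RFX factors of ciliated cells bind. The last motif, TATAAA, is the core promoter element that positions transcription starts.
Kcnj13, chr1:87394730-87394979, minus strand: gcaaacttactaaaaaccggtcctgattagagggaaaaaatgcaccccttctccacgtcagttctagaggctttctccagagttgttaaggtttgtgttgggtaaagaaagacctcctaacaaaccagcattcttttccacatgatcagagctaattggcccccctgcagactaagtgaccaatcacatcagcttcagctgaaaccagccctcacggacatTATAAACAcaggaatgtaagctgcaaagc
Kcne2, chr16:92292139-92292388, plus strand: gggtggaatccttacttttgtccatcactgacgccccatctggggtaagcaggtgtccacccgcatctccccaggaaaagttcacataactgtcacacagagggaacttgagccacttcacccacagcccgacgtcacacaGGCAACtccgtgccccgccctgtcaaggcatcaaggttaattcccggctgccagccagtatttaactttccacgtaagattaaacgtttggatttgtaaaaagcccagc
Aqp1, chr6:55336049-55336298, plus strand: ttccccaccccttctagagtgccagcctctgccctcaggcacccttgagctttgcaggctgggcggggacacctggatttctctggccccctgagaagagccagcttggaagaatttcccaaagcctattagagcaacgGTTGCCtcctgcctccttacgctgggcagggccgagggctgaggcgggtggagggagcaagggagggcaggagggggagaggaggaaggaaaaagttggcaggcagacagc

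In Kcnj13 the TATAAA match began 29 bases before the start and overlapped the forkhead core, which began 27 bases before it. GTTGCC lay 111 bases before the RefSeq start in Aqp1 and, on the other strand, 109 bases before that in Kcne2. The RefSeq start of Aqp1, at 55336299, lies upstream of the start of its only measured transcript, Aqp1-201, at 55336432. The printed Aqp1 window thus does not adjoin the transcript that was measured. Of all 32851 RefSeq windows of this length, 10.4% held GTTGCC, 12.03% TAAACA, 12.4% TATAAA and 6.25% TAATCC. No window of these genes held TAATCC, and the windows of Kl and of the second Kcne2 start held none of the 4 motifs. A match describes letters and not a bound site.

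Levels are given as TPM (transcript abundance corrected for length, relative to all rows of a library), with the deposited credibility interval, whose level is not stated. A gene counted as detected where neither library fell below 1 TPM. By that rule 9 of the 10 genes were detected, and 8 of the 9, all but Clic6, exceeded 10 TPM on average. The median gene of the 10 had 11.7 TPM in replicate 1 and 22.5 in replicate 2. Their summed level was 666.05 TPM in replicate 1 and 1244 in replicate 2, of which Ttr alone supplied 79.95% and 82.1%. The libraries held 33080194 and 38756411 estimated counts, and Kl, the gene with the fewest, rested on 66 and 63 of them.

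**Figure D1:**
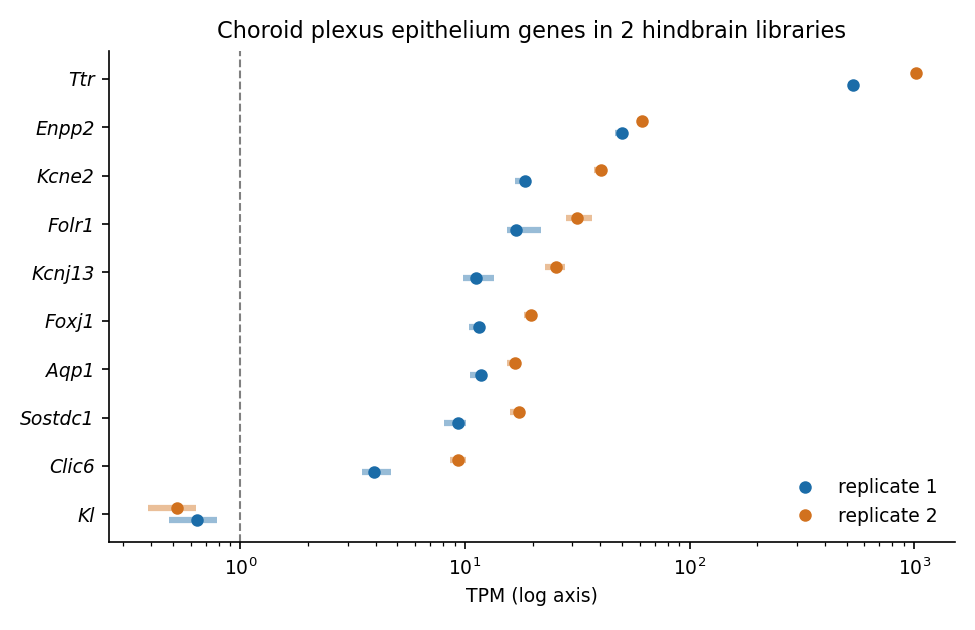
TPM (log axis) of the 10 genes in replicate 1 (blue) and replicate 2 (orange); points are deposited TPM, bars the deposited credibility intervals of unstated level, and the dashed line is 1 TPM. Replicate 2 lies above replicate 1 for 9 genes, and Kl lies below 1 TPM in both.

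Transthyretin, the carrier of thyroxine and of retinol-binding protein, is a major secreted product of this epithelium. Its gene Ttr (ENSMUSG00000061808.3, chromosome 18, 20665280 to 20674321 in GRCm38, protein coding, 4 exons) reached 532.53 TPM in replicate 1 and 1022 in replicate 2, on 12319 and 27930 counts. Its mean of 777 ± 346 TPM (SD, n = 2) placed it 128th among all genes. Replicate 2 was the higher library by 1.92-fold in TPM, and the deposited intervals, 508.6 to 526.8 and 986.5 to 1010, were far apart. Both TPM values lay above their own interval, which surrounds the posterior mean.

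Autotaxin, encoded by Enpp2 (ENSMUSG00000022425.11, chromosome 15, 54838901 to 54952892), is a secreted enzyme that makes the lipid signal lysophosphatidic acid. It was the second of the genes in level, with 49.8 TPM in replicate 1 and 61.1 in replicate 2, or 55.4 ± 8.004 (SD, n = 2). The libraries differed by only 1.23-fold, while their intervals, 46.8 to 50.2 and 58.02 to 61.6, did not overlap. Relative to Ttr, Enpp2 stood at 9.35% in replicate 1 and 5.98% in replicate 2.

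Sostdc1 (ENSMUSG00000036169.5, chromosome 12, 36314139 to 36318452) encodes a secreted antagonist of BMP and WNT signals. It had 9.29 TPM in replicate 1 and 17.5 in replicate 2 (13.4 ± 5.78, SD, n = 2), higher in replicate 2 by 1.88-fold. Set against Ttr its level was nearly constant, at 1.74% and 1.71%.

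Klotho, encoded by Kl (ENSMUSG00000058488.6, chromosome 5, 150952607 to 150993817), is a membrane protein with a shed ectodomain that serves as coreceptor of FGF23. Its level was 0.64 TPM in replicate 1 and 0.52 in replicate 2 (0.58 ± 0.0849, SD, n = 2), on 66 and 63 counts. It was the only one of the 10 that was not higher in replicate 2, and its intervals, 0.481 to 0.783 and 0.386 to 0.635, overlapped. Reads were thus present, at a level below the detection rule in each library.

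Among the genes of transport, Kcne2 stood highest. KCNE2 is a small membrane subunit that modifies potassium channels such as KCNQ1, and its gene (ENSMUSG00000039672.8, chromosome 16, 92292389 to 92298129) was measured at 18.5 TPM in replicate 1 and 40.4 in replicate 2 (29.4 ± 15.5, SD, n = 2). Its intervals, 16.7 to 19.6 and 37.6 to 41.5, did not overlap.

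Kcnj13 (ENSMUSG00000079436.3, chromosome 1, 87386363 to 87394729) encodes the inward rectifier potassium channel Kir7.1. It had 11.2 TPM in replicate 1 and 25.3 in replicate 2 (18.3 ± 9.98, SD, n = 2). Kcnj13 lies within Gigyf2 on the other strand (87326998 to 87450796), and 623 of the 1270 exon bases of Kcnj13-201, or 49.1%, are also exon bases of Gigyf2. Gigyf2, an adaptor of translational repression, had 60.4 and 63.9 TPM in replicates 1 and 2, a difference much smaller than that of Kcnj13. The strand setting of the counting is not given in the sources used here, so the level of Kcnj13 is uncertain.

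Clic6 (ENSMUSG00000022949.5, chromosome 16, 92485736 to 92541243) encodes a chloride intracellular channel protein, also called parchorin, of water-secreting epithelia. It had 3.92 TPM in replicate 1 and 9.35 in replicate 2 (6.63 ± 3.84, SD, n = 2), the lowest level among the detected genes. Its TPM fold of 2.39 was the highest of the 10. Clic6 begins 187607 bases after the end of Kcne2 on the same strand.

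Folr1 (ENSMUSG00000001827.7, chromosome 7, 101858331 to 101870788) encodes folate receptor alpha, which moves folate into the cerebrospinal fluid. It had 16.8 TPM in replicate 1 and 31.6 in replicate 2 (24.2 ± 10.5, SD, n = 2), with intervals of 15.4 to 21.7 and 28.1 to 36.7. Its span overlaps that of Anapc15 on the other strand, and no exon base is shared between the 2 genes in GENCODE M21.

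Aqp1 (ENSMUSG00000004655.5, chromosome 6, 55336432 to 55348555) encodes the water channel of the apical membrane, which red blood cells and some endothelia also carry. It had 11.8 TPM in replicate 1 and 16.7 in replicate 2 (14.2 ± 3.46, SD, n = 2), with intervals of 10.6 to 12.4 and 15.3 to 17.3. The difference of 1.42-fold was between those of Enpp2 and Foxj1.

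Foxj1 (ENSMUSG00000034227.7, chromosome 11, 116330704 to 116335399) encodes the forkhead factor that directs the genes of motile cilia, and it is also active in the floor plate and in ependymal cells. It had 11.6 TPM in replicate 1 and 19.8 in replicate 2 (15.7 ± 5.78, SD, n = 2). Its difference of 1.70-fold was smaller than those of Kcne2, Kcnj13 and Clic6.

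The difference between the libraries was then set against that of all genes. Counts were scaled by TMM (a trimmed mean of ratios between libraries) to CPM (counts relative to the scaled library total), and a two-sided exact binomial test with Benjamini-Hochberg adjustment was run over the 19687 genes with at least 10 counts. It called 9 of the 10 genes higher in replicate 2 and none lower, with Kl not called (adjusted p = 0.569, exact binomial test), where 7.07% of all tested genes were called higher and 5.49% lower. The adjusted p ranged from 5.45e-11 for Aqp1 to 5.35e-65 for Kcne2 in this exact test, with Ttr below the smallest number the software can write. That test measures counting error only, so its calls depend on how many counts a gene has. The median of mean levels was 17.0 TPM over the 10 genes and 8.7 over all tested genes. With a spread between libraries added, as the common dispersion of edgeR (a coefficient of variation of 6.30%), the edgeR exact test called 8 of the 10 higher and none lower, against 1.15% of all tested genes higher and 0.792% lower. That dispersion was estimated from the same 2 libraries, with 1 library on each side of the test, so its calls are a stricter reading of the same pair and no independent check. The deposited intervals of the 2 libraries did not overlap, with replicate 2 higher, for 9 of the 10 genes and for 3.86% of all tested genes. Enpp2 was the gene that lost its call (adjusted p = 0.388, edgeR exact test), and Aqp1 stayed called with an adjusted p of 0.0276 in the same exact test. Adjusted p-values of the other 7 ran from 5.85e-05 for Folr1 to 2.35e-12 for Clic6 (edgeR exact test).

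The median log2 ratio of replicate 2 over replicate 1, on the log2(TPM + 1) scale, was 0.86 over the 10 genes and -0.01 over all tested genes. A TPM at least 1.5-fold higher in replicate 2 was reached by 7 of the 10 genes, and by 0.93% of the 11500 genes whose mean was at least 5 TPM. Over those 11500 genes the 1st percentile of the log2 ratio was -0.44 and the 99th percentile 0.51, and 7 of the 10 choroid plexus genes lay above the latter.

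**Figure D2:**
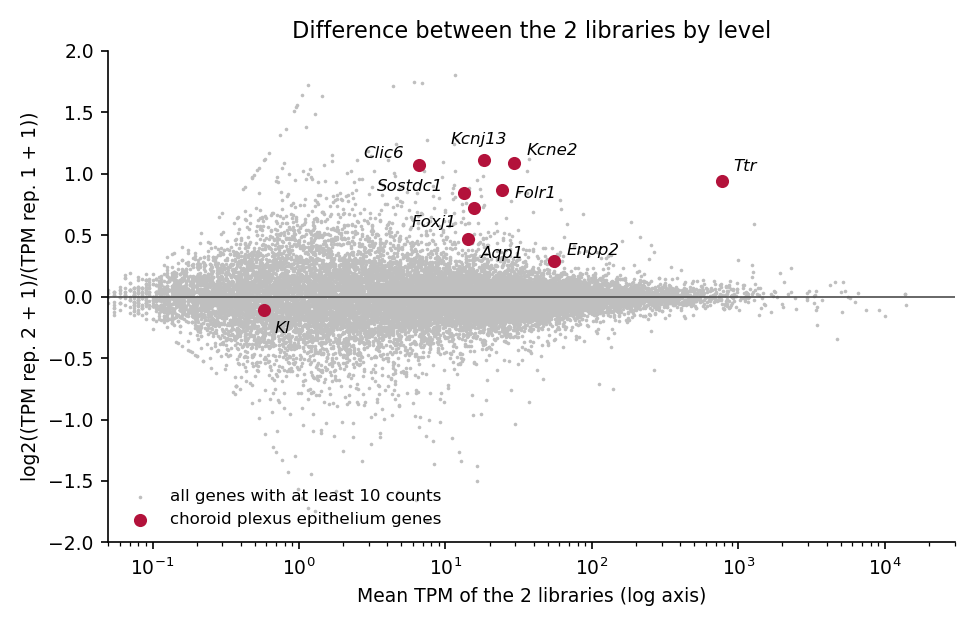
Log2 ratio of replicate 2 over replicate 1, as log2 of TPM plus 1, against the mean TPM of the 2 libraries (log axis), for all genes with at least 10 counts (grey) and the 10 choroid plexus genes (red, named). The choroid plexus genes other than Kl lie above 0, from 0.29 for Enpp2 to 1.11 for Kcnj13; 13 genes lie outside the vertical axis and 12 outside the horizontal one.

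Judged against counting error alone, the genes did not differ between the libraries by 1 common factor. Whether they differed beyond the spread between libraries was not tested. On the CPM scale, Clic6 was 2.42-fold higher in replicate 2, with an exact 95% interval of 2.12 to 2.78 that covers counting error only. Kcnj13 was 2.23-fold higher (1.93 to 2.57) and Kcne2 2.21-fold (2.01 to 2.43). Ttr was 1.95-fold higher, with the narrowest interval, 1.91 to 1.99.

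Sostdc1 was 1.91-fold higher (1.67 to 2.18), Folr1 1.84-fold (1.58 to 2.16) and Foxj1 1.73-fold (1.57 to 1.91). Aqp1 was 1.44-fold higher (1.30 to 1.59) and Enpp2 1.24-fold (1.19 to 1.30). Kl was at 0.82-fold, with an interval of 0.571 to 1.18 that includes 1. The interval of Enpp2 lay below those of 7 genes, namely Ttr, Clic6, Kcnj13, Kcne2, Sostdc1, Folr1 and Foxj1, and that of Aqp1 lay below those of Ttr, Clic6, Kcnj13, Kcne2 and Sostdc1.

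Ratios to Ttr within a library do not depend on how the libraries are scaled. Folr1 stood at 3.16% of the Ttr level in replicate 1 and 3.09% in replicate 2, and Foxj1 at 2.18% and 1.93%. Kcne2 was at 3.47% and 3.95%, Kcnj13 at 2.10% and 2.48%, and Clic6 at 0.736% and 0.915%. Thus the 3 channel genes were higher relative to Ttr in replicate 2, whereas Aqp1, at 2.21% and 1.63%, and Enpp2 were lower relative to it. For Kcnj13 the interval of the CPM fold, 1.93 to 2.57, overlapped that of Ttr, 1.91 to 1.99. The intervals of Kcne2, 2.01 to 2.43, and Clic6, 2.12 to 2.78, lay above that of Ttr. All of these intervals cover counting error only, and a difference from Ttr beyond the spread between libraries was not tested.

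The genes were also placed in the order of all genes by log2 ratio. Over the 11500 genes whose mean was at least 5 TPM, the 10 highest were Gm27995, Rpl30-ps9, Gm3625, Zfp781, Mir124a-2, Gm25014, Gm23864, Gm27868, Gm24407 and Gm12397. The first 7 of these had 0 counts in replicate 1, among them the pseudogene Rpl30-ps9 with 154 counts in replicate 2 and the zinc finger gene Zfp781 with 206. Kcnj13 was at rank 17, Kcne2 at 19, Clic6 at 21, Ttr at 28, Folr1 at 35 and Sostdc1 at 40. Foxj1 followed at 56, Aqp1 at 137 and Enpp2 at 365. A selection made after the data were seen kept the 10770 protein-coding genes with at least 10 counts and a mean of at least 5 TPM. Among these, Kcnj13, Kcne2 and Clic6 held ranks 3, 4 and 6 and Ttr rank 11.

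The other genes among the first 7 of that protein-coding order, named after their values were seen, were Zfp781 at rank 1, Atoh1 at rank 2, Fgf3 at rank 5 and Msx1 at rank 7. Atoh1, which marks the rhombic lip, had 6.35 TPM in replicate 1 and 16.4 in replicate 2. Fgf3, a growth factor gene, had 10.95 and 24.25 TPM, and Msx1, a homeobox gene of the roof plate, had 23.3 and 48.4.

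Other genes of the choroid plexus were taken from lists of transport genes and of secreted and junctional genes. Of 20 transport genes, 11 were called higher in replicate 2 and none lower by the exact binomial test (7.07% of all tested genes were called higher), and 6 were higher with the edgeR dispersion (1.15%). The highest in level were Atp1b1, the beta subunit of the sodium pump, with 105 and 107 TPM in replicates 1 and 2, and the monoamine transporter Slc29a4 with 63.0 and 63.2; neither was called. The bicarbonate transporter Slc4a5 had 1.90 and 4.39 TPM, the carbonic anhydrases Car12 and Car14 had 2.65 and 5.14 and 5.02 and 8.62, and the thyroxine transporter Slco1c1 had 8.82 and 13.8, all called by both tests. The cation channel gene Trpm3, host of a microRNA of this epithelium, had 10.7 and 16.7 TPM and was called by the binomial test alone.

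Of 25 matched secreted, junctional and other epithelial genes, 9 were called higher, 2 lower and 13 not called (7.07% of all tested genes were higher and 5.49% lower), and 5 were higher and 0 lower in the edgeR exact test (1.15% and 0.792%). The proteinase inhibitor Cst3, at 425 and 433 TPM in replicates 1 and 2, was not called, and Igfbp2, an IGF-binding protein secreted by the plexus, had 320 and 378. Calml4, a calmodulin-like protein, had 7.30 and 15.8 TPM, Cldn1, a tight junction protein, 4.92 and 7.97, Krt18, an epithelial keratin, 6.36 and 11.8, and its partner Krt8 3.58 and 5.48. Tmem72, a membrane protein, had 0.75 and 1.55 TPM. Of these, Calml4, Cldn1 and Krt18 kept the call in the edgeR exact test, and Igfbp2, Krt8 and Tmem72 did not. Rbp4, the retinol carrier that binds transthyretin, went the other way with 4.09 and 2.22 TPM, and lost its call with the edgeR dispersion (adjusted p = 0.189, edgeR exact test).

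Roof plate genes, from which the epithelium is specified, gave 8 of 20 called higher and none lower (7.07% and 5.49% of all tested genes), and 3 higher in the edgeR exact test (1.15%). Ttyh1, a membrane protein of progenitors, and Wls, the carrier that WNT proteins need for secretion, were highest in level, with 106 and 111 and with 60.2 and 69.2 TPM in replicates 1 and 2, and both were called by the binomial test alone. Msx1, Wnt3a at 1.15 and 3.36 TPM and Zic1 at 11.1 and 17.3 TPM were called by both tests, and Rspo1, a WNT agonist, at 2.04 and 3.33 TPM by the binomial test alone. Otx2 and Lmx1a, which the choroid plexus and the roof plate need to form, are named after their values were seen: Otx2 had 17.8 and 18.8 TPM and Lmx1a 7.48 and 8.23, and neither was called.

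Genes of the cilia that FOXJ1 serves were taken as a further list. Of 30 matched genes of motile cilia and multiciliated cells, 14 were called higher in replicate 2, none lower and 15 not called (7.07% of all tested genes were higher and 5.49% lower), and 9 were higher in the edgeR exact test (1.15%). Tppp3, a tubulin-binding protein, and the radial spoke gene Rsph9 were highest in level, with 140 and 148 and with 25.8 and 27.5 TPM in replicates 1 and 2, and were not called. Deup1, of the organelle that multiplies centrioles, had 1.09 and 2.75 TPM, Ccno, a cyclin of multiciliated cells, 0.74 and 1.94, Rsph1 4.50 and 7.51 and Cfap126 7.68 and 14.98, all called by both tests. Spag16 at 0.95 and 1.73 TPM and Spef2 at 1.41 and 2.25 TPM, genes of the ciliary axoneme, were called by the binomial test alone. The multiciliation regulators Gmnc and Mcidas, named after their values were seen, had 0.62 and 1.16 and 0.45 and 1.31 TPM, and both were called by both tests.

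Partners of the 10 genes in their own pathways were counted in the same way. Beside them, 7.07% of all tested genes were called higher and 5.49% lower by the binomial test. The edgeR exact test called 1.15% higher and 0.792% lower. With spike-in scaling, 556 of the 19687 tested genes were higher and 7390 lower. Of 11 folate genes, led by Tyms, the thymidylate synthase, and the folate enzyme gene Aldh1l1, none was called higher and Shmt1, a serine hydroxymethyltransferase, was called lower with 9.92 and 6.43 TPM in replicates 1 and 2. That call was lost in the edgeR exact test (adjusted p = 0.447), and spike-in scaling gave 0 folate genes higher and 7 lower. Of 9 receptors and phosphatases of lysophosphatidic acid, led by Plpp3 and Plpp1, Lpar4 was called higher and Lpar1 lower; both lost the call in the edgeR exact test. Of 17 channel partners and relatives, led by Clic1 at 81.7 and 83.1 TPM and Clic4 at 68.0 and 68.8, 2 were called higher and none kept the call with the edgeR dispersion, and scaling by spike-ins gave 0 higher and 4 lower. KCNE2's partner gene Kcnq1 was present at 1.09 and 1.35 TPM.

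Among 11 genes of thyroid hormone and retinol handling, with the thyroid hormone receptor gene Thra highest in level, 3 were called higher and 1 lower (3 and 4 with spike-in scaling), and Slco1c1 alone kept its call in the edgeR exact test. Among 11 modulators of BMP and WNT signals, led by Nbl1 and Dand5, 2 were called higher and none lower (1 and 1 with spike-in scaling). Of the 2, Sost rested on 1 count in replicate 1 and 16 in replicate 2. Over all tested genes, 7.07% were called higher and 5.49% lower by the binomial test, beside each list here. In the edgeR exact test these shares were 1.15% and 0.792%. With spike-in scaling, 556 of the 19687 tested genes were higher and 7390 lower. Of 8 genes related to klotho signalling, led by Fgf15 and the receptor gene Fgfr3, 3 were called higher and none lower (2 and 1 with spike-in scaling). Of the genes called, Fgf15 had 29.9 and 48.8 TPM. Fgf23, which encodes the hormone that klotho binds with its receptor, had 0.06 and 0.05 TPM.

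Markers of other cell types that express some of these genes were measured beside them. Meningeal genes, a site of Enpp2 expression, gave 8 of 14 called lower in replicate 2 and 2 higher by the binomial test (5.49% of all tested genes were lower and 7.07% higher). In the edgeR exact test 2 were lower, Col1a1 and Ogn, and 1 higher (0.792% and 1.15% of all tested genes). The list had a summed level of 1052 TPM in replicate 1 and 856 in replicate 2. Col3a1 had 277 and 229 TPM, Col1a1 176 and 104, Igf2 165 and 144 and the proteoglycan gene Ogn 12.1 and 6.63. Floor plate genes, a site of Foxj1 and Enpp2 expression, gave 3 of 11 called lower and none higher by the binomial test (5.49% and 7.07% of all tested genes). This list summed to 141 and 114 TPM, with Spon1 at 86.7 and 68.2 TPM and Ntn1 at 21.4 and 18.1. Neither of these was called in the edgeR exact test, where Foxa1, at 0.88 and 0.35 TPM and named after its value was seen, was the 1 gene lower. The median log2 ratios of the meningeal and floor plate lists were -0.26 and -0.19, and the part of these cells in the results was not tested.

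Red blood cell genes, which bear on Aqp1, gave 6 of 10 called higher and 3 lower by the binomial test, and 0 higher and 2 lower in the edgeR exact test; with spike-in scaling the binomial calls were 2 and 5. Hba-a2, whose reads can be shared with a near-identical copy, had 4937 and 5375 TPM in replicates 1 and 2. The globin gene Hbb-y had 3317 and 3429 TPM, and the globin gene Hbb-bh1 57.2 and 35.5. Hba-a2 and Hbb-y were called higher by the binomial test at log2 ratios of only 0.12 and 0.05. Beside this list and those below, 7.07% of all tested genes were called higher and 5.49% lower by the binomial test. In the edgeR exact test the shares were 1.15% higher and 0.792% lower. With spike-in scaling, 556 of the 19687 tested genes were higher and 7390 lower. Of 9 endothelial genes, led by Cldn5 and Esam, 1 was called higher, and their sum was 190 TPM in replicate 1 and 197 in replicate 2. Of 10 oligodendrocyte lineage genes, led by Cldn11 and Cnp, 2 were called higher and 1 lower, and none kept the call in the edgeR exact test (1 and 5 with spike-in scaling). No neuron or progenitor gene of 10 each, led by Tubb3, Stmn2, Fabp7 and Vim, was called in the edgeR exact test. Lists of this length are too short to tell an absence of calls from the edgeR shares above. By the binomial test 1 neuron gene and 6 progenitor genes were higher and 4 and 3 lower. With spike-in scaling 0 and 2 of them were higher and 10 and 5 lower.

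**Figure D3:**
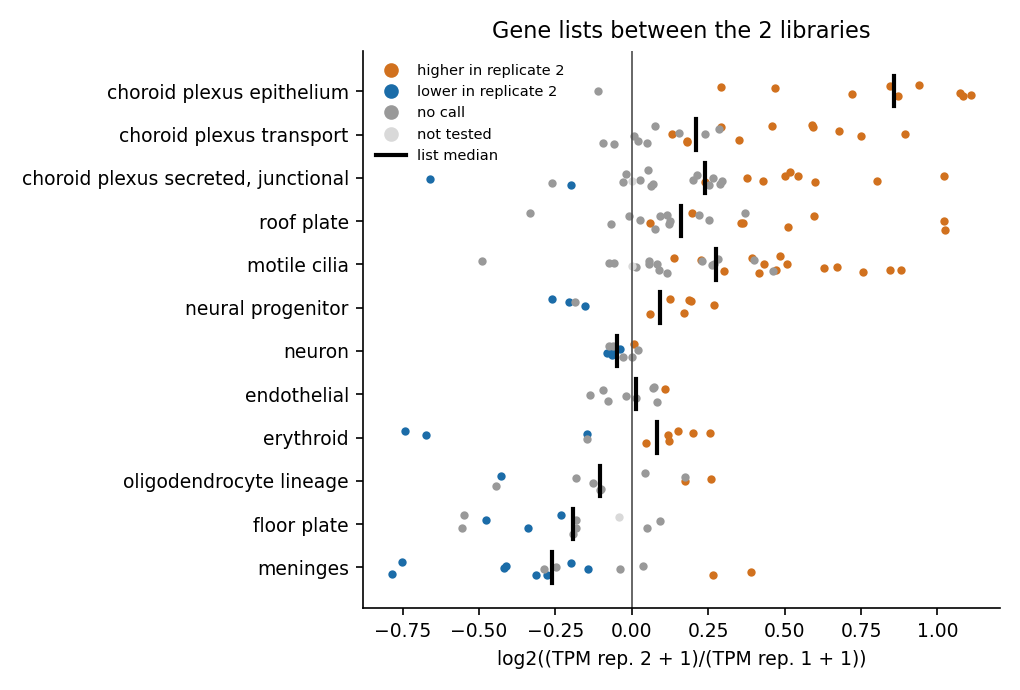
Log2 ratio of replicate 2 over replicate 1, as log2 of TPM plus 1, for each matched gene of 12 lists; colours give the exact binomial call and black bars the list medians. The choroid plexus epithelium genes have a median of 0.86, the motile cilia genes 0.28, and the meningeal genes -0.26.

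Transcript tables showed 1 transcript for each of Ttr, Kl, Aqp1, Foxj1 and Sostdc1. Kcne2 and Clic6 have a second listed transcript, and in both the estimated counts went entirely to the first, Kcne2-201 and Clic6-201, in both libraries. These zeros are assignments by a model and not direct counts: the deposited intervals of Kcne2-202 reached up to 1.78 TPM in both libraries, with posterior mean shares of 3.30% in replicate 1 and 1.58% in replicate 2. Those of Clic6-202 reached up to 0.707 and 0.620 TPM, with posterior mean shares of 5.89% and 2.19%. Kcnj13-201 carried 100% of the Kcnj13 TPM in replicate 1 and 96.8% in replicate 2, but by posterior mean 92.98% and 94.34%. The other transcript, Kcnj13-202, rested on 0 and 3.21 counts, with intervals that reached up to 2.25 and 3.30 TPM.

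Enpp2 was spread over 4 transcripts, with Enpp2-201 in the lead. This form, which lacks both exons printed above and corresponds to autotaxin beta, carried 86.2% of the gene's TPM in replicate 1 and 84.2% in replicate 2 (85.2% ± 1.41, SD, n = 2). The 2 forms that hold the 156-base exon, Enpp2-203 and Enpp2-204, together carried 10.6% and 12.4%. Enpp2-202, which holds the 75-base exon known from the brain form of autotaxin, carried 3.25% and 3.39%.

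In TPM, Enpp2-201 had 42.9 in replicate 1 and 51.4 in replicate 2, a 1.199-fold difference. The forms with the 156-base exon summed to 5.26 and 7.59 TPM, or 1.44-fold, and Enpp2-202 had 1.62 and 2.07 TPM on 85.7 and 129 counts. Every group of forms was thus higher in TPM in replicate 2. The deposited intervals were apart only for Enpp2-201, at 39.1 to 43.7 and 47.4 to 52.4 TPM. For Enpp2-202, Enpp2-203 and Enpp2-204 the intervals of the libraries overlapped. The exon content of Enpp2-203 is that of GENCODE M21, where it is shorter, at 2745 bases, than the 3398 bases in the deposited tables. Which reads crossed the printed exons is not recorded in the tables, and no test was run on the shares.

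Folr1 had 17 listed transcripts, of which 10 received a count in either library and 4 reached 5% of the gene's TPM in either. Folr1-201, a complete coding form, held 52.7% of TPM in replicate 1 and 44.99% in replicate 2 (48.9% ± 5.47, SD, n = 2). Folr1-205, with the same coding length of 765 bases, held 12.9% and 12.1%, but by posterior mean 4.23% and 6.99%, and its 2.18 TPM in replicate 1 lay above the upper end of its interval, 2.01.

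The short transcript Folr1-213, of 331 bases with 87 coding bases, held 34.2% and 25.2% of TPM on only 27.6 and 45.1 counts. By counts, which are not divided by length, it held 11.5% and 8.80%, and Folr1-201 held 66.0% and 58.2%. Folr1-206, of 350 bases, had 0 counts in replicate 1 and 21.2 in replicate 2. That 0 too is an assignment by a model, since its posterior mean shares were 4.12% and 9.5%. Its intervals, which reached up to 2.04 and 5.90 TPM, overlapped. Taken by itself, Folr1-201 was higher in replicate 2, with 8.87 and 14.2 TPM on 158 and 299 counts. The TPM level of Folr1 thus depends on how reads were divided among short transcripts, and its CPM fold of 1.84 was close to its TPM fold of 1.88.

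**Figure D4:**
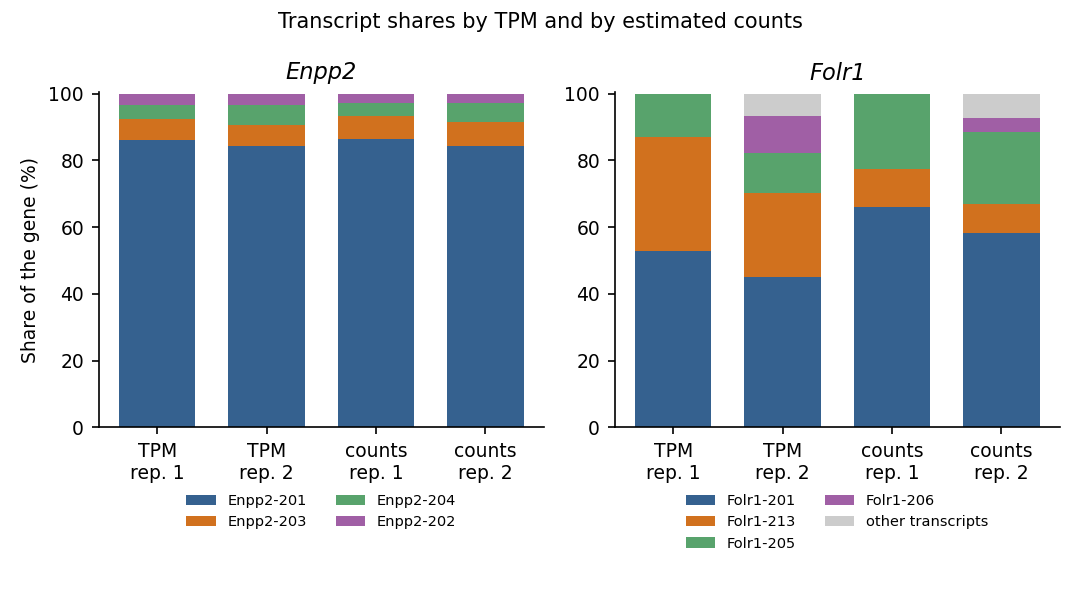
Share of each transcript in its gene, in percent, by TPM and by estimated counts, in replicates 1 and 2, for Enpp2 (left) and Folr1 (right). Enpp2-201 holds at least 84.2% by either measure, while Folr1-213 holds 34.2% of TPM and 11.5% of counts in replicate 1.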

How the data were processed

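Each library had 1 gene table and 1 transcript table. The estimated counts (expected counts) were made by the authors from transcriptome alignments to mm10 with GENCODE M4, per notes deposited beside the tables. The aligner, the counting program and its strand setting were not given in the sources used here. TPM and FPKM were deposited by the authors, spike-ins included. The deposited bounds of the TPM credibility interval were read as a non-negative signal. The share of each transcript was deposited as a percent of its gene's TPM. Names and positions came from GENCODE M21 (GRCm38, the build mm10), which matched 42462 of 43346 Ensembl genes.

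Estimated counts were rounded. TMM factors, a common dispersion from an intercept-only design and the exact test with it came from edgeR 4.0.16 in R 4.3.3; a quasi-likelihood test cannot be run on 1 group of 2. Exact binomial tests and intervals used SciPy 1.17.1, with Python 3.11.15, pandas 2.3.3, numpy 2.4.6 and matplotlib 3.10.9; DESeq2 1.42.0 gave alternative size factors. Calls used an adjusted p of 0.05. The methods were tested on simulated pairs of libraries with known differences. A limit on false calls was required only for pairs simulated without spread between libraries. No label says that the libraries came from separate embryos, so the difference between them may be technical. The binomial p-values cover counting error only, and those of edgeR add 1 common dispersion for all genes. Neither measures the spread of a gene between embryos. The exact intervals cover counting error only, since they come from read counts and hold no term for spread between libraries. Without molecular identifiers PCR copies of a molecule are counted separately, so the intervals may be too narrow even for that error.

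The 10 genes, the other lists and the tests were chosen with earlier results of these data known, so no count of a list is independent evidence. Named from each list were the 2 genes highest in mean TPM and those averaging at least 1 TPM that were called and differed 1.5-fold; from all genes averaging at least 5 TPM, the 10 with the highest ratio; and transcripts with 5% of TPM. Alternatives were other detection thresholds, units, pseudocounts, scalings, count filters and tests, and each library alone. Some genes that this rule names are not reported here.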

Additional observations from a re-analysis of the deposited data

How the results depend on the processing

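The count of detected genes was 9 of 10 at a TPM of 1, and each library alone also gave 9; it was 8 with a TPM of 5 and 10 with a TPM of 0.5. The number called higher in replicate 2 was 9 under TMM, total counts, DESeq2 size factors, spike-in totals, no count filter and disjoint deposited intervals, and 8 with the edgeR dispersion. The median log2 ratio of the 10 genes lay between 0.81 (posterior mean TPM) and 0.90 (pseudocount of 0.1), against 0.86. Over all genes the edgeR exact test called 226 higher and 156 lower where the binomial test called 1391 and 1081. Scaling by spike-in totals lowered every ratio by 0.14 on the log2 scale. Of the 19687 tested genes it called 556 higher (2.82%) and 7390 lower, or 6.997% higher among those called against 56.3%. For the 229 genes of the other lists, 69 were called higher and 25 lower; the edgeR exact test called 27 and 5, and spike-in scaling called 47 higher and 70 lower. Under spike-in scaling the choroid plexus transport list gave 8 higher and 3 lower and the secreted list 9 and 5. The motile cilia list gave 13 and 1 and the roof plate list 6 and 1. Red blood cell genes gave 2 higher and 5 lower, progenitor genes 2 and 5 and channel relatives 0 and 4. Folate genes gave 0 and 7 and endothelial genes 0 and 2. The lower calls of each list stand beside the 7390 lower calls among all tested genes. Fewer calls with the edgeR dispersion follow from the added spread. The number of transcripts with 5% of TPM was 15, 13 to 15 with one library left out, and 18 by posterior mean. No paired analysis was possible because the 2 libraries form 1 group. The 66 and 63 counts of Kl limit its ratio to the interval given. Ranks among protein-coding genes were added after the data were seen, and moved the genes up the order.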
